A study of Mus musculus with 6 samples.

Results

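The class I major histocompatibility complex (MHC) genes and the genes that make and load their peptides were followed in bulk RNA-seq libraries of LβT2 cells. The set holds 9 genes, *B2m*, *H2-K1*, *H2-D1*, *Tap1*, *Tap2*, *Tapbp*, *Psmb8*, *Psmb9* and *Nlrc5*, out of 47069 in the count table. They were chosen by gene symbol for their role in class I presentation, with no measured value in the rule, and each symbol matched 1 entry. LβT2 is an immortalized mouse line derived from pituitary gonadotropes, the cells that release luteinizing and follicle-stimulating hormone. All 6 libraries came from cells given gonadotropin-releasing hormone (GnRH) at 2 nM for 40 min. In the 3 fresh libraries the cells were lysed directly, and in the other 3 they had been kept at 4°C in the preservative RNA-Best, for at least 4 days according to the methods. The comparison addresses whether preservation alters the transcript levels of these genes. Untreated cells were not analysed here, and every library is of this 1 cell line, so the values hold no contrast for GnRH or between lines.

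Class I molecules display peptides from inside the cell to CD8+ T cells. A proteasome whose standard catalytic subunits are replaced by Psmb8 and Psmb9 cuts proteins, the Tap1-Tap2 transporter carries the peptides into the endoplasmic reticulum, and tapasin (Tapbp) brings the transporter to the heavy chains H2-K1 and H2-D1, which pair with β2-microglobulin (B2m). Nlrc5 is a transactivator that acts on the promoters of many of these genes, and interferons raise the whole set in most cell types.

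Depth was 14477304 to 47438746 counts among fresh and 4909418 to 11999363 counts among RNA-Best libraries, so the preserved libraries were all shallower. Levels are given as CPM, counts scaled to a library's total. Genes are called where the quasi-likelihood test of edgeR across 14736 genes gave an adjusted p below 0.05. Nothing in the labels ties the libraries of a group to separate cultures, so p-values measure the spread between libraries, which may be technical. The gonadotrope markers summed to between 3051 and 3094 CPM in fresh and between 2539 and 2610.5 CPM in RNA-Best libraries, and *Fshb* had no count. Of the 5 that were tested, *Cga* (1813 against 1426 CPM on average), *Nr5a1* and *Pitx1* were called lower, *Gnrhr*, the GnRH receptor gene, was called higher (119 against 164 CPM) and *Lhb* did not pass the threshold, with a median log2 fold change of -0.21. With a GC offset *Pitx1* lost its call, and with that offset or either length offset *Lhb* was called higher. Markers of immune cells, which carry class I genes at high levels, summed to between 7.33 and 8.56 CPM in fresh and between 7.07 and 8.0 CPM in RNA-Best libraries. Neither of the 2 tested markers was called. *Cd68* was at 0.20 on the log2 scale and *Itgam* at -0.35 (edgeR adjusted p = 0.0623), the latter with every RNA-Best library below every fresh one. *Itgam* was called lower with an offset for principal transcript length (-0.49, adjusted p = 0.0152) or GC content (-0.38, adjusted p = 0.0466). *Ptprc*, the pan-leukocyte marker, was at 0 in all 6 libraries. A count of 0 allows up to 3 counts, which is 0.0632 to 0.611 CPM by library. Fibroblast markers summed to between 0.148 and 0.271 CPM in fresh and between 0.114 and 0.204 CPM in RNA-Best libraries. Markers of other pituitary cells summed to between 0.765 and 1.11 CPM in fresh and between 1.22 and 2.28 CPM in RNA-Best libraries, and the 1 tested, *Tshb*, was called higher (0.91 on the log2 scale, edgeR adjusted p = 0.0035), a call lost without RNA-Best replicate 1 (0.62, adjusted p = 0.147, from 0.000959 to 0.147 over all alternatives). The part of these markers in the results was not tested. Of 4 endothelial markers, *Cdh5* and *Pecam1* carried nearly all of 191 to 193 CPM in fresh and 196 to 209 CPM in RNA-Best libraries, 1 was called higher and 1 lower, and *Tek* was near 0. *Cdh5* (0.12) lost its call with an offset for principal transcript length (0.04, adjusted p = 0.406). The adjusted p of *Pecam1* (-0.15) reached 0.0969 over all alternatives. In bulk RNA, fewer cells of a type and less RNA per cell cannot be told apart.

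Of the 9 genes, 7 lie on chromosome 17 in the mouse MHC region, *B2m* lies on chromosome 2 and *Nlrc5* on chromosome 8. Promoter sequences were available for 7 genes from RefSeq on GRCm38.p6, as windows from 250 bases before to 50 bases after the start of transcription. *Tap2* and *Nlrc5* had no window, and *H2-K1* had 2, of which the first listed was used. The windows of the heavy chains, the light chain and *Tap1* are shown because they hold the letters of known class I promoter elements. Capitals mark 5 patterns searched on both strands, namely a κB site as GGGNNTTNC, a short interferon response element as GAANNGAAA, the longer core of the interferon-stimulated response element with 1 more A after GAA, the cAMP response element half-site TGACG and the CCAAT box. No match overlapped another in these windows, and matches on the opposite strand read as their reverse complements.
H2-K1, chr17:34000298-34000597, minus strand: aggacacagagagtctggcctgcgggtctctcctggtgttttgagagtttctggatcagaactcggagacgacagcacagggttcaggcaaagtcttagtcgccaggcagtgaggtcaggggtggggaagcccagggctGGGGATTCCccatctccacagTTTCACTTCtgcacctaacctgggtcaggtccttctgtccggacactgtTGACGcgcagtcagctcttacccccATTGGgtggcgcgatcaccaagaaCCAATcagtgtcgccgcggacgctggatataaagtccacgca
H2-D1, chr17:35262844-35263143, plus strand: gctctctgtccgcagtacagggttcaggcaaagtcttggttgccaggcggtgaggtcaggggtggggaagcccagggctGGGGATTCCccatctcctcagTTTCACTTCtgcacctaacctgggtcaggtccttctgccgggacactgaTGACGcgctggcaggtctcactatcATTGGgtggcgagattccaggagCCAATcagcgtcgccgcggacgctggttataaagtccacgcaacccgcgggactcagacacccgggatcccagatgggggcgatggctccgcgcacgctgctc
B2m, chr2:122147437-122147736, plus strand: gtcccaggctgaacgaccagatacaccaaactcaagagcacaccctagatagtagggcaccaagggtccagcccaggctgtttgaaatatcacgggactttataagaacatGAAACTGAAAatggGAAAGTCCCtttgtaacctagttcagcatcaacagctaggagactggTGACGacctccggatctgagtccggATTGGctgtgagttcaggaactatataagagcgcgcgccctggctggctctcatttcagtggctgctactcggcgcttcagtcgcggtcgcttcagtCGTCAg
Tap1, chr17:34187306-34187605, plus strand: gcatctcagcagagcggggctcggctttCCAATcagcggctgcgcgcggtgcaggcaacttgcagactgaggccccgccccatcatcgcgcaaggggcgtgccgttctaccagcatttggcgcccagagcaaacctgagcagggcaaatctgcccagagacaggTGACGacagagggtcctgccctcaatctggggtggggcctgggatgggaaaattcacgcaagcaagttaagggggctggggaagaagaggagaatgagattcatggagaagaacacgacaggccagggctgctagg

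The *H2-K1* and *H2-D1* windows aligned over 239 bases, of which 211, or 88.3%, were identical. In both, the elements came in the same order, with the start of the short interferon element 21 bases, the half-site 70 bases and the first CCAAT box 95 bases from the start of the κB site. The second CCAAT box was 119 bases from it in *H2-K1* and 118 bases in *H2-D1*. The κB letters were in 3 of 7 windows, those of *H2-K1*, *H2-D1* and *B2m*, against 15.2% of the 32851 promoter windows of all genes. This pattern was the last of 3 versions, each chosen after the matches of the one before were seen. The first, the exact 10 letters present in the *H2-D1* window, was in 2 of 7 windows, *H2-K1* and *H2-D1*, and in 0.107% of all windows, and the second, with 1 more C than the printed pattern, was in 3 of 7 and in 4.79% of all. *B2m* was matched by the looser versions alone, on the opposite strand. The short interferon element was in 2 of 7, *H2-K1* and *H2-D1* (7.52% of all windows). The longer core, searched after the other matches were seen, was in 1 of 7, *B2m* (3.44% of all). These 3 windows each hold an interferon-type and a κB pattern, which for *B2m* follows from the way the patterns were chosen. The κB pattern and the longer core were picked with these windows in view, so the shares over all windows are not a test of them. The half-site was in 5 of 7, namely *B2m*, *H2-K1*, *H2-D1*, *Tap1* and *Psmb9* (20.8% of all), and the CCAAT box in 6 of 7, all but *Psmb8* (37.4% of all). *Tap1* and *Psmb9* are transcribed away from each other from annotated starts 226 bases apart, and their windows share 275 bases, so the half-site and the CCAAT box counted for *Psmb9* are the same genomic letters as those printed for *Tap1*. A match is a run of letters and not a measured binding site.

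The set was lower after preservation. All 8 genes that passed the count filter had a negative log2 fold change, and 7 were called lower, against 24.8% of all tested genes called lower, 26.0% called higher and 50.8% called in either direction. The median log2 fold change was -0.24 over these 8 and -0.0074 over all tested genes. In 7 of the 8 every RNA-Best library lay below every fresh library, a pattern shown by 27.1% of all tested genes, and in 0 every RNA-Best library lay above, which 30.4% showed. No change of the set reached 2-fold, and 1.45% of tested genes were called with a change of that size or more. Summed over the 9 genes, the level was 1055, 1060.4 and 1101 CPM in the fresh libraries and 897, 884 and 897 CPM in the RNA-Best libraries. The plot of CPM by library shows each gene on a common axis.

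**Figure D1:**
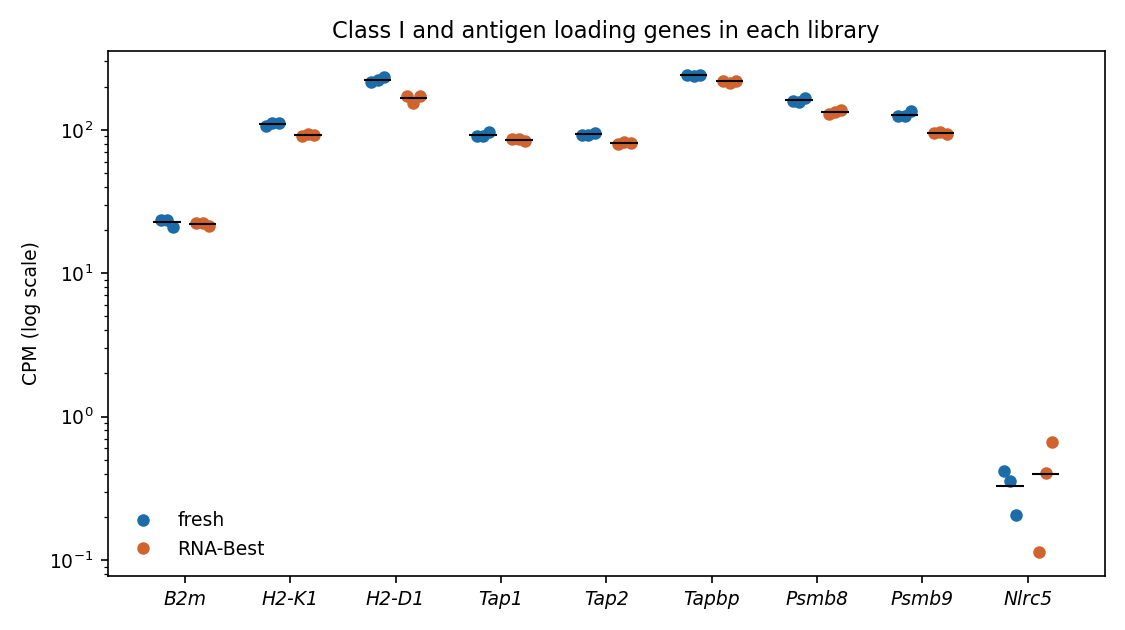
CPM (log axis) of the 9 genes in each library, with 1 point per library, fresh in blue and RNA-Best in orange, and the group mean as a bar. The groups are apart in 7 genes and overlap in *B2m* and *Nlrc5*, and *Nlrc5* lies under 1 CPM in all 6 libraries.

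Both classical heavy chains fell. *H2-D1* (ENSMUSG00000073411, chr17:35262730-35267499, plus strand) encodes a heavy chain that holds the peptide in its groove. It had 216, 223 and 233 CPM in the fresh and 172, 155 and 171 CPM in the RNA-Best libraries. The groups were far apart, and RNA-Best replicate 2, the shallowest library, was the lowest. The means were 224 ± 8.57 and 166 ± 9.36 CPM (SD, n = 3 each), 25.7% lower after preservation, with a log2 fold change of -0.43 (SE 0.04, edgeR adjusted p = 2.67e-12). *H2-K1* (ENSMUSG00000061232, chr17:33996017-34000347, minus strand), the other classical heavy chain, had 107, 112 and 112 CPM in the fresh libraries and 90.5, 92.9 and 91.4 CPM in the RNA-Best libraries. Within each group its libraries lay close together, with a clear gap between the groups. The mean fell from 110.0 ± 2.97 to 91.6 ± 1.23 CPM, a log2 fold change of -0.28 (SE 0.04, edgeR adjusted p = 1.82e-07). Heavy-chain genes are close paralogs. Of the stretches of 100 bases in their annotated transcripts, 0.957% in *H2-K1* and 3.59% in *H2-D1* also occurred in transcripts of other genes, among them *H2-Q10* and *H2-Q1*. Both genes had parts of counts in all 6 libraries, so a share of their reads was divided between genes. The class I haplotype of the line was not compared with that of the reference.

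The light chain did not pass the threshold. *B2m* (ENSMUSG00000060802, chr2:122147686-122153083, plus strand) had 23.5, 23.4 and 21.0 CPM in the fresh and 22.5, 22.4 and 21.5 CPM in the RNA-Best libraries. All 3 RNA-Best values lay between the lowest and the highest fresh values. The log2 fold change was -0.08, with a 95% confidence interval from -0.22 to 0.06 (edgeR adjusted p = 0.348), which lies above the intervals of *H2-D1* (-0.50 to -0.36) and, except for its lowest end, of *H2-K1* (-0.36 to -0.20). Its sign depended on the correction for transcript length. With an offset for exonic length it was 0.12 (adjusted p = 0.174) and with an offset for GC content -0.20 (adjusted p = 0.0127), and the adjusted p ran from 0.0127 to 0.834 over all alternatives. With the GC offset the interval of *B2m* (-0.34 to -0.07) overlapped those of *H2-K1* (-0.29 to -0.13) and *H2-D1* (-0.41 to -0.27). *B2m* is the shortest of the 9, at 860 exonic bases, and no part of its counts was shared.

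The immunoproteasome subunits fell together. *Psmb9* (ENSMUSG00000096727, chr17:34181987-34187764, minus strand), the interferon-inducible counterpart of Psmb6, had 125, 124 and 135 CPM in the fresh and 95.7, 97.2 and 93.7 CPM in the RNA-Best libraries. No value of either group came near the other group. The level was 25.7% lower, with a log2 fold change of -0.43 (SE 0.04, edgeR adjusted p = 3.09e-11). *Psmb8* (ENSMUSG00000024338, chr17:34197721-34201454, plus strand), which takes the place of Psmb5, had 159, 156 and 166 CPM in the fresh and 129, 134 and 137 CPM in the RNA-Best libraries. These groups were apart as well. Its log2 fold change was -0.27 (SE 0.04, edgeR adjusted p = 5.51e-08). Other models share sequence with both genes. These are *Gm20496* for *Psmb8* and, on the opposite strand, the first bases of the *Tap1* model for *Psmb9*. The use of strand in counting is not given in the sources used here. Stretches of 100 bases shared with other genes made up 8.05% in *Psmb8* and 2.73% in *Psmb9*.

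The transporter subunits and tapasin fell by 8.1% to 13.7%. *Tap2* (ENSMUSG00000024339, chr17:34203527-34216321, plus strand), a subunit of the peptide transporter, had 91.7, 91.6 and 95.5 CPM in the fresh and 79.8, 82.5 and 80.4 CPM in the RNA-Best libraries. The groups did not overlap. It was 13.7% lower, with a log2 fold change of -0.21 (SE 0.04, edgeR adjusted p = 2.84e-05). *Tap1* (ENSMUSG00000037321, chr17:34187553-34197225, plus strand), the partner subunit, had 90.2, 90.8 and 96.3 CPM in the fresh and 86.3, 86.8 and 83.5 CPM in the RNA-Best libraries. The gap between the groups was the narrowest of the called genes, 86.8 against 90.2 CPM. Its log2 fold change was -0.12 (SE 0.04, edgeR adjusted p = 0.0115), and the call was lost with a GC offset (-0.04, adjusted p = 0.482), after thinning all libraries to the smallest (-0.08, adjusted p = 0.291) and without RNA-Best replicate 3 (-0.10, adjusted p = 0.118), within a range from 0.000386 to 0.482 over all alternatives. *Tapbp* (ENSMUSG00000024308, chr17:33915899-33929292, plus strand) had 243, 239 and 242 CPM in the fresh and 221, 213 and 219 CPM in the RNA-Best libraries. The groups stood well apart relative to their spread, with means of 242 ± 1.96 and 218 ± 4.06 CPM. Its log2 fold change was -0.16 (SE 0.03, edgeR adjusted p = 3.00e-05), and a GC offset gave -0.06 (adjusted p = 0.0983), the highest of its adjusted p, which reached down to 3.29e-09. Other genes shared 4.99% of the stretches of 100 bases of *Tap2*, 1.93% of *Tap1* and 14.8% of *Tapbp*. *Tapbp* had parts of counts in all 6 libraries.

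The transactivator was barely counted. *Nlrc5* (ENSMUSG00000074151, chr8:94434356-94527272, plus strand) had 17, 17 and 3 counts in the fresh and 1, 2 and 8 counts in the RNA-Best libraries. In CPM these were 0.419, 0.358 and 0.207 against 0.114, 0.407 and 0.667. Exact Poisson intervals at 95% ran from 0.244 to 0.671 CPM in fresh replicate 1 and from 0.288 to 1.31 CPM in RNA-Best replicate 3, and they cover counting error only. It did not pass the count filter, and without the filter its log2 fold change was 0.18 with an interval from -0.79 to 1.16 (edgeR adjusted p = 0.812). A difference was not detectable at this depth. In the same libraries each of the other 8 genes had at least 21.0 CPM.

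Levels of different genes can be set side by side only per length. As CPM per kilobase of annotated exons in the fresh libraries, *H2-D1* came first at 83.7 to 90.3, followed by *Tapbp* at 66.0 to 67.0 and *Psmb8* at 46.2 to 49.2. *H2-K1* (36.3 to 38.0) and *Psmb9* (33.8 to 36.8) overlapped, and so did *B2m* (24.4 to 27.4) and *Tap2* (24.2 to 25.2). *Tap1* followed at 16.5 to 17.6 and *Nlrc5* at 0.0244 to 0.0494. All but *Nlrc5* lay in the upper part of the tested genes, from the 73.4th percentile (*Tap1*) to the 95.4th (*H2-D1*). After preservation, *H2-D1* (60.1 to 66.6) no longer stood apart from *Tapbp* (58.8 to 61.0), and *Psmb9* (25.6 to 26.5) overlapped *B2m* (25.0 to 26.1). The annotated exons of some of these genes include retained introns and long variants. Per kilobase of the principal transcript, a scale added after the values were seen, *Psmb8* (96.0 to 102) and *Psmb9* (91.6 to 99.6) moved up behind *H2-D1* (103 to 111) in the fresh libraries, and *B2m* moved to the last place above *Nlrc5*, overlapping *Tap2*.

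Ratios between genes of the same library do not depend on library size. For each of 6 ratios, an exact permutation test over the libraries cannot give a two-sided p below 0.1, and the first 2 ratios below were planned whereas the last 4 were chosen after their values were seen. *B2m* to the sum of *H2-K1* and *H2-D1*, in CPM per exonic kilobase, was 0.228, 0.219 and 0.19 in the fresh and 0.268, 0.284 and 0.257 in the RNA-Best libraries. Every preserved library thus held more light chain per heavy chain transcript than every fresh one. The log2 ratio rose by 0.35 (exact permutation test, two-sided, p = 0.1, adjusted p = 0.1 over 6 ratios), and leaving out single libraries gave 0.27 to 0.40. The ratio was not corrected for GC content, and in the fit with a GC offset the log2 fold changes were -0.20 for *B2m*, -0.21 for *H2-K1* and -0.34 for *H2-D1*, closer together than without it. *Psmb8* plus *Psmb9* to *Psmb5* plus *Psmb6*, the subunits they replace, was 0.289, 0.296 and 0.3 in the fresh and 0.305, 0.318 and 0.303 in the RNA-Best libraries. The difference was 0.06 on the log2 scale (exact permutation test, two-sided, p = 0.1), and with CPM not divided by length the groups overlapped (0.04, p = 0.3). The replacement subunits and the subunits they replace were all called lower.

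Ratios between other pairs of genes of the set were apart in the fresh and the preserved libraries as well. *Psmb9* to *Tap1*, the neighbours with shared promoter sequence, was 2.07, 2.04 and 2.09 in the fresh and 1.66, 1.68 and 1.68 in the RNA-Best libraries. The spread within each group was small beside the gap, with a log2 difference of -0.31. *Psmb9* to *Psmb8* was 0.729, 0.731 and 0.748 against 0.684, 0.671 and 0.633, a log2 difference of -0.15. *H2-D1* to *H2-K1* was 2.31, 2.28 and 2.37 against 2.16, 1.9 and 2.13, a log2 difference of -0.17. *Tap1* to *Tap2* was 0.679, 0.684 and 0.696 against 0.747, 0.726 and 0.717, a log2 difference of 0.09. Dividing by length does not remove a trend of fold change with length, and these ratios were not corrected for one. With the exonic length offset the log2 fold changes of *Tap1* (-0.18) and *Tap2* (-0.17) were nearly equal. *Psmb9* was then at -0.38, *Psmb8* at -0.21, *H2-D1* at -0.31 and *H2-K1* at -0.18. With the principal transcript length offset *Tap1* was at -0.12, *Tap2* at -0.25 and *Psmb9* at -0.27. In each of these 4 ratios the groups did not overlap (exact permutation test, two-sided, p = 0.1 each, the smallest possible). Because the 4 were chosen after their values were seen, the test adds nothing to that separation.

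**Figure D2:**
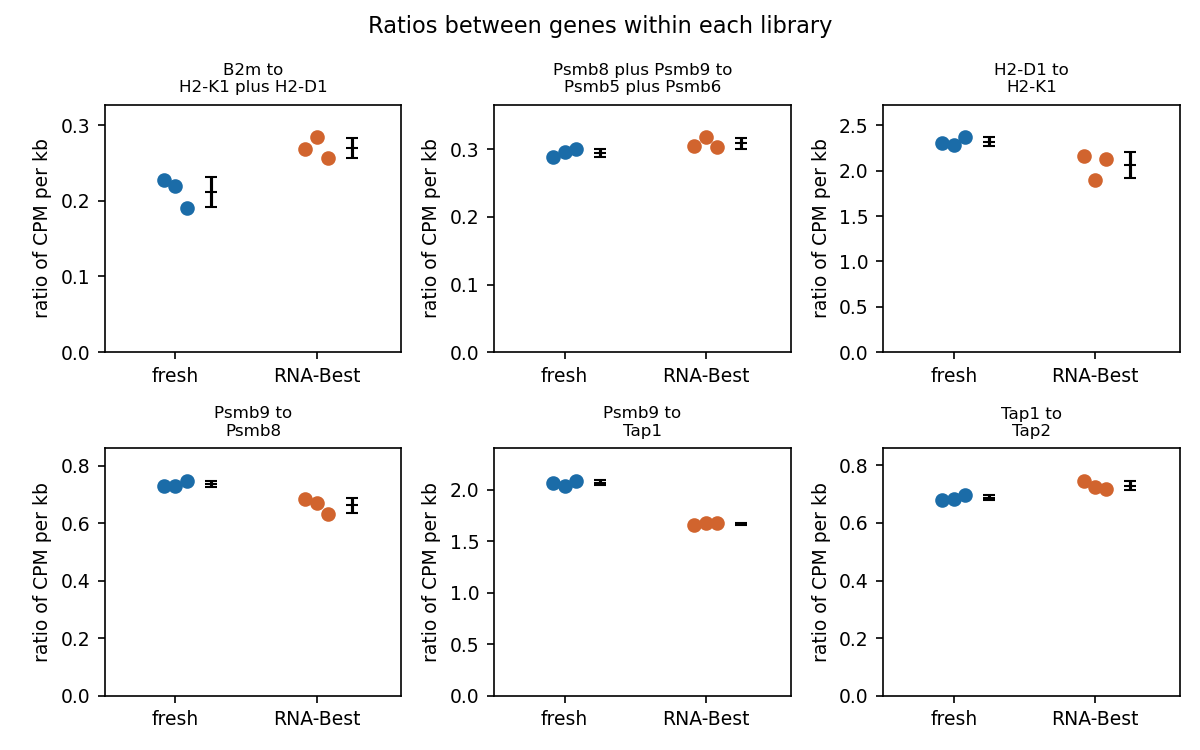
Ratio of CPM per exonic kilobase (vertical axis, no unit, from 0) in each library for 6 ratios between genes, with 1 point per library and the mean ± SD at the side. The ratio of *B2m* to the heavy chains goes from 0.212 ± 0.0197 to 0.27 ± 0.0135, and *Psmb9* to *Tap1* goes from 2.07 ± 0.0263 to 1.67 ± 0.0103.

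Fold changes in these libraries moved with transcript length, and the 9 genes differ in length. Among all tested genes the median log2 fold change was -0.22 for exonic lengths up to 1000 bases, -0.15 from there to 3000, -0.04 to 5000, 0.13 to 10000 and 0.32 above. *B2m* lay above the median of genes of its length. The other 7 tested genes, at 2579 to 5476 exonic bases, lay below the medians of theirs. With an offset for exonic length 7 genes were still called lower, against 19.5% of all genes tested that way called lower and 18.7% called higher, and with an offset for the length of the principal transcript 7, against 17.5%. In the first of these, *Psmb9* had a log2 fold change of -0.38, *H2-D1* -0.31, *Psmb8* -0.21, *H2-K1* and *Tap1* -0.18 each, *Tap2* -0.17 and *Tapbp* -0.11. With the principal transcript length, *H2-D1* had -0.34, *Psmb9* -0.27, *Tap2* -0.25, *Tapbp* -0.15, *Psmb8* and *H2-K1* -0.14 each and *Tap1* -0.12. An offset for GC content left 6 called lower, against 23.3% of all genes, since *B2m* entered and *Tap1* and *Tapbp* were lost. The part of length and depth in the remaining differences was not tested.

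**Figure D3:**
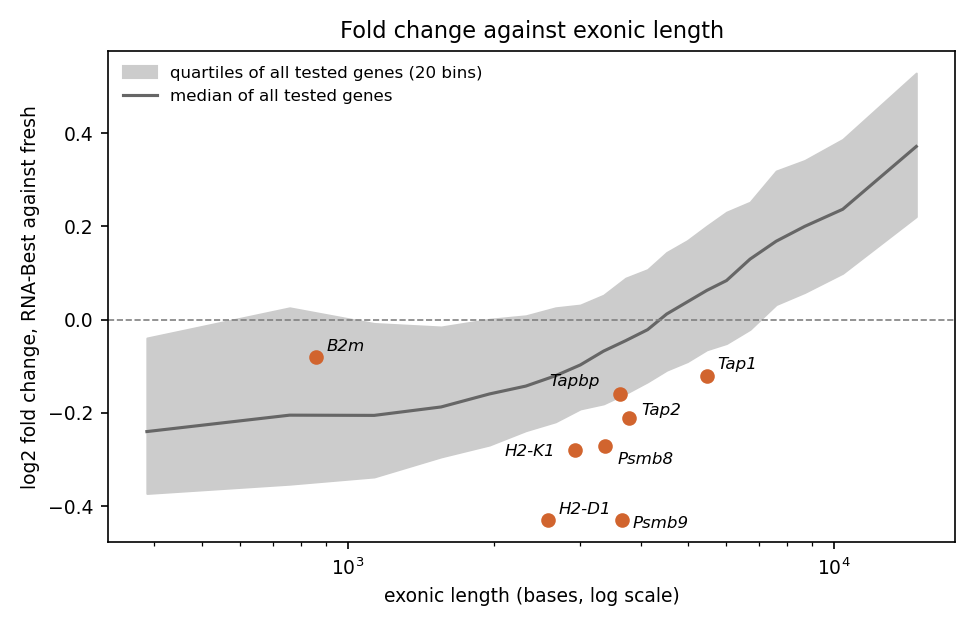
Log2 fold change of RNA-Best against fresh (vertical axis) by exonic length in bases (log axis) for the 8 tested genes, over the median (line) and quartiles (grey) of all tested genes in 20 bins of length. *B2m* lies above the line and the other 7 genes lie below it.

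**Figure D4:**
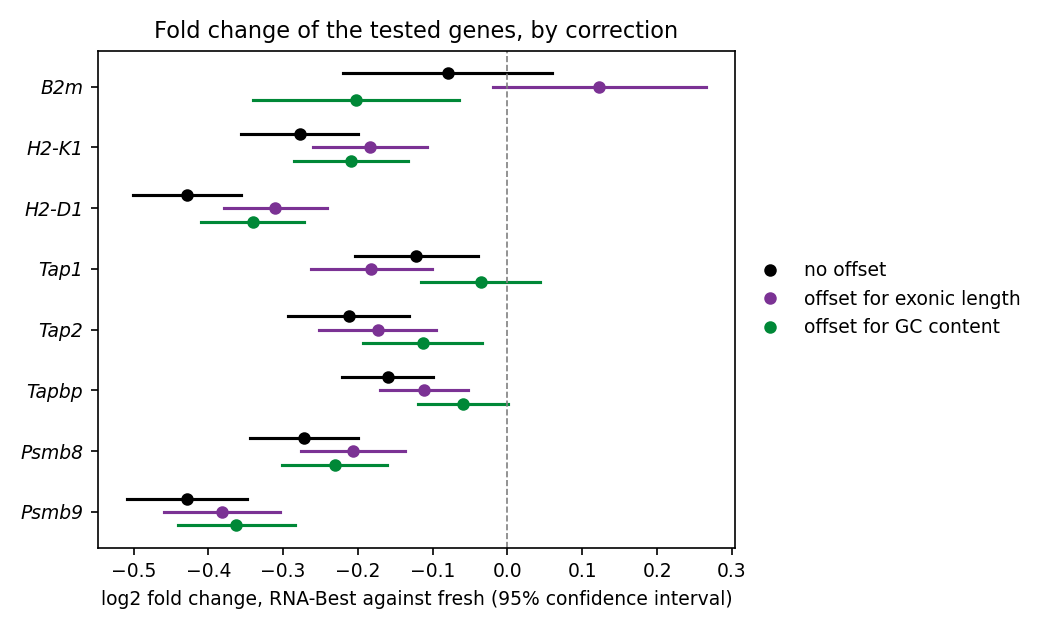
Log2 fold change with its 95% confidence interval for the 8 tested genes with no offset (black), an offset for exonic length (purple) and an offset for GC content (green). *H2-K1*, *H2-D1*, *Tap2*, *Psmb8* and *Psmb9* stay below 0 in all 3 fits, whereas *B2m* changes sign and the intervals of *Tap1* and *Tapbp* reach 0 with the GC offset.

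*Psmb9*, whose change was level with that of *H2-D1* at 2 decimals and larger in the further digits, was compared with all tested genes over the 6 libraries by the root mean square difference of centred log2(CPM + 1) profiles. The nearest of 14735 genes were *Gm43712* (difference 0.0167), *Psmb3* (0.0188), which encodes a standard subunit of the proteasome, and the pseudogene *Rpl9-ps7* (0.0227). *H2-D1* ranked 317th (0.0637), *Psmb8* 704th, *H2-K1* 788th and *B2m* 6258th. The closest profile to *Psmb9* was therefore not that of another gene of the set.

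Related genes were taken as 7 lists, and of the 69 that passed the count filter 39 were called, 13 higher and 26 lower. Of all tested genes 50.8% were called, 26.0% higher and 24.8% lower. With the exonic length offset 26 of the 69 were called, 7 higher and 19 lower, beside 18.7% higher and 19.5% lower of all genes. With the principal transcript length offset 24 were called. The first list holds proteasome genes, namely the standard catalytic subunits, *Psmb10* (the remaining interferon-inducible subunit), the assembly factor *Pomp* and the activators. All 9 passed the filter, 8 were called lower and 1 higher, with a median log2 fold change of -0.30. *Psmb10* was among those called lower, and its call was lost in 9 of the 19 alternatives, among them either length offset, the GC offset, DESeq2 and leaving out fresh replicate 1, RNA-Best replicate 2 or RNA-Best replicate 3. *Psme2*, a subunit of the interferon-inducible activator PA28, fell by 0.44 on the log2 scale (edgeR adjusted p = 4.66e-13), *Psmb5* by 0.43, *Psmb6* by 0.36 and *Pomp* by 0.32, and none of the 4 calls was lost under any alternative. *Psme4*, whose product is a different activator, was the gene called higher (0.19), a call lost with either length offset. With the length offset 6 remained lower and 0 higher.

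Nonclassical class I and class I-like heavy chains numbered 14, of which 11 passed the filter, 4 were called lower and 1 higher, with a median of -0.21. *H2-T22* had a log2 fold change of -0.21 (edgeR adjusted p = 7.63e-05), whose call was lost with the principal transcript length offset. *H2-T23*, the mouse Qa-1 chain, had -0.24 and lost its call in 6 of the 19 alternatives, namely DESeq2, either length offset, the replicate block with the length offset, the GC offset and leaving out RNA-Best replicate 3. *H2-Q6*, also at -0.24, lost its call in 12 of the 19 alternatives, among them voom, DESeq2, both length offsets, the GC offset and leaving out any 1 RNA-Best library or fresh replicate 2. *H2-T24* went the other way. It had 0.419, 0.727 and 0.276 CPM in the fresh and 2.17, 2.04 and 1.42 CPM in the RNA-Best libraries, with a log2 fold change of 1.71 (edgeR adjusted p = 7.64e-06) and no call lost. *H2-T10* (-0.15) and *Hfe* (-0.13), an iron-regulating class I-like chain, did not pass the threshold. With the length offset 1 of the list was lower and 1 higher.

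Partners in loading and trimming split, with 4 of 10 higher and 2 lower and a median of 0.01, or 1 higher and 3 lower with the length offset. *Lnpep*, an aminopeptidase of endosomes that trims peptides for cross-presentation, had 10.0, 9.63 and 7.87 CPM in the fresh and 28.4, 27.7 and 23.8 CPM in the RNA-Best libraries. Every preserved library was far above every fresh library, with a log2 fold change of 1.44 (edgeR adjusted p = 3.16e-16), or 1.10 with the length offset. *Erap1*, the trimming enzyme of the endoplasmic reticulum, was called higher at 0.23, the peptidase *Ide* at 0.17 and *Tpp2* at 0.17. These 3 calls were lost with either length offset and with the replicate block and length offset together, and those of *Erap1* and *Tpp2* with the GC offset too. *Erap1* also lost its call after thinning, and *Tpp2* turned to -0.08 with the length offset. The chaperone *Canx* (-0.06) and the aminopeptidase *Npepps* (0.02) did not pass the threshold. With the length offset both were called lower, *Canx* at -0.08 (adjusted p = 0.0268, from 9.45e-07 to 0.386 over all alternatives) and *Npepps* at -0.12 (adjusted p = 0.00099, from 0.000539 to 0.949).

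Among 14 regulators of class I transcription, 3 were called higher and 4 lower, with a median of 0.00, or 3 higher and 2 lower with the length offset. *Rfx5*, a subunit of the RFX complex that works with Nlrc5 on class I promoters, had 15.5, 16.2 and 16.7 CPM in the fresh and 23.5, 23.4 and 22.1 CPM in the RNA-Best libraries. It was called higher, with a log2 fold change of 0.50 (edgeR adjusted p = 3.18e-07) and no call lost. *Creb1*, which binds cAMP response elements, was at 0.31 and *Nfya*, a subunit of the CCAAT-binding factor, at 0.23, and both calls were lost with the length offset, with and without the replicate block. *Rfxank*, another RFX subunit, was called lower at -0.24, and that call was lost in 11 of the 19 alternatives, among them DESeq2, the replicate block, the length and GC offsets and leaving out fresh replicate 2 or any 1 RNA-Best library. *Nfyc* (0.03) and *Nfkb1* (-0.04) did not pass the threshold, but did with the length offset, at 0.13 (adjusted p = 0.00859) and -0.34 (adjusted p = 2.32e-07), within ranges of 0.00676 to 0.857 and 2.32e-07 to 0.763 over all alternatives.

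Receptors and signalling genes of the interferon pathway numbered 12, with 3 called higher, 3 lower and a median of -0.01, or 1 higher and 4 lower with the length offset. The receptor chain *Ifngr2* fell by 0.28 on the log2 scale (edgeR adjusted p = 0.00215) and the transcription factor *Irf3* by 0.26 (adjusted p = 5.04e-06), and neither call was lost under any alternative. The kinase gene *Jak2* was called higher at 0.24, a call lost with the principal transcript length offset. *Ifnar1* (0.07) did not pass the threshold under any alternative, and its sign turned with the length offset (-0.02). *Tyk2* (-0.02) did not pass either, but was called lower with the length offset (-0.14, adjusted p = 0.0214, from 0.00719 to 0.998 over all alternatives) and was at 0.08 with the GC offset.

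Interferon-stimulated genes were mostly at low levels, and 8 of 21 stayed under 1 CPM in every library, among them *Isg15*, *Ifit1* and *Rsad2*. Of 11 that passed the filter, 4 were called lower and 1 higher, with a median of 0.02, or 3 lower and 1 higher with the length offset. *Bst2*, the tetherin gene, fell by 0.58 on the log2 scale (edgeR adjusted p = 5.98e-08) and *Usp18*, which encodes a brake on interferon signalling, by 0.31. *Igtp* (-0.24) lost its call in 9 of the 19 alternatives, among them DESeq2, the replicate block, both length offsets and leaving out fresh replicate 2 or any 1 RNA-Best library. The RNA sensor *Ddx58* was called higher at 0.51 (edgeR adjusted p = 0.00475), a call lost in 4 of the 19 alternatives, namely DESeq2, the replicate block with the length offset, thinning and leaving out RNA-Best replicate 1. *Rtp4* (0.02) and *Oasl2* (0.21) did not pass the threshold, and *Oasl2* passed it without fresh replicate 1 alone among the 19 alternatives. Of 7 MHC class II genes 2 passed the filter. *H2-DMb1*, a subunit of the class II peptide exchanger, was called lower at -0.29 (edgeR adjusted p = 0.0112), a call lost in 6 of the 19 alternatives, namely DESeq2, either length offset, the replicate block with the length offset, thinning and leaving out RNA-Best replicate 1, and its partner *H2-DMa* (-0.20) did not pass. The class II transactivator *Ciita* and the chains *H2-Aa*, *H2-Ab1* and *H2-Eb1* stayed under 1 CPM in every library. The plot of fold changes by list sets these groups side by side.

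**Figure D5:**
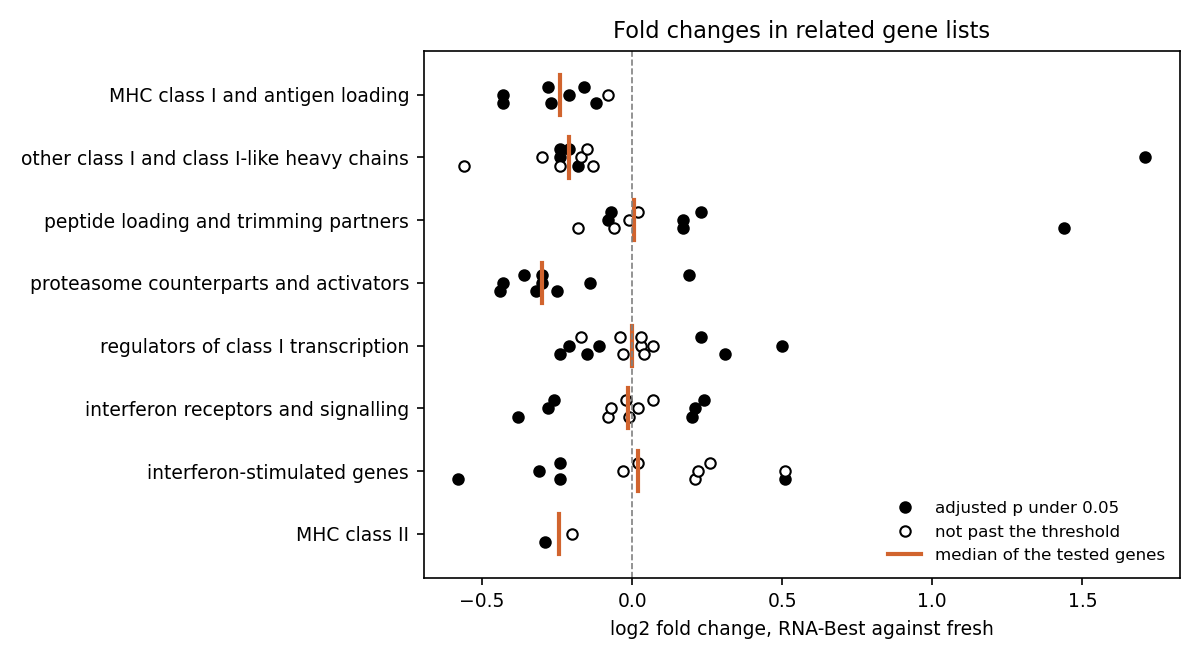
Log2 fold change of RNA-Best against fresh (horizontal axis) for each tested gene of the set (top row) and of 7 related lists, with called genes filled, other genes open and the list's median as an orange bar. The set (median -0.24), the proteasome genes (-0.30) and the other class I and class I-like heavy chains (-0.21) lie mostly below 0. The 2 tested class II genes (-0.24) do too, whereas partners, regulators and both interferon lists spread on both sides.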

How the data were processed

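Bulk RNA-seq libraries of LβT2 cells given GnRH were used, 3 fresh and 3 RNA-Best. Reads were single, were mapped by the authors with STAR 2.5.1b on GRCm38 and were summed per gene by featureCounts 1.5.0-p1 (versions from the submitters' processing notes). The deposited table gives unscaled estimated counts. In each library 9.36% to 16.3% of them differed from a whole number by more than 0.001, and neither the setting that divided reads nor the use of strand is given in the sources used here.

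Counts were rounded and tested in R 4.3.3 with the quasi-likelihood test of edgeR 4.0.16 (TMM, filterByExpr with minimum count 10), with Benjamini-Hochberg adjustment over all tested genes. CPM were computed from column totals. The authors' method, voom of limma 3.58.1, and DESeq2 1.42.0 were alternatives, beside other scalings, filters and rounding, a replicate block, loess offsets (span 0.5) for length and GC content, thinning to 4909268 counts and leaving out single libraries. The principal transcript length was added after seeing the data. The κB pattern was searched in 3 versions, loosened after matches were seen, and the interferon element in 2, and all are reported.

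Symbols, positions, lengths and GC content came from GENCODE M21, later than the authors' release on the same assembly, and matched 46488 of 47069 genes. Replicate numbers did not pair the libraries (correlations of deviations -0.00844, 0.0121 and -0.0077). The 9 genes and all lists were chosen with earlier results of these data known. Of each list, at most 4 called genes with the largest changes and 2 uncalled genes with the highest levels are named, and 1 gene that this rule names is not reported here. Genes outside this rule, such as *Psme4* and those at trace levels, were named after their values were seen. The qPCR and single-cell data of the study were not used here.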

Additional observations from a re-analysis of the deposited data

How the results depend on the processing

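The number of called genes of the set was 7 in most of the 19 alternatives and 6 with the GC offset, after thinning and without RNA-Best replicate 3, so leaving out single libraries gave 6 to 7. *H2-K1*, *H2-D1*, *Tap2*, *Psmb8* and *Psmb9* were lower and called under all 19. *Tap1* lost its call in 3 and *Tapbp* in 1, as given above. The log2 fold change of *B2m* turned to 0.12 with the exonic length offset, 0.13 with the principal transcript length offset, 0.16 with the replicate block and the length offset together and 0.04 after thinning, and passed the threshold at -0.20 with the GC offset. The causes were not tested.

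Over the related lists, 39 genes were called, against 24 with the principal transcript length offset and 24 with the replicate block and length offset together. Leaving out single libraries gave 30 to 38, the lowest without RNA-Best replicate 1. The replicate block alone gave 7 genes of the set and 38 of the lists. The immunoproteasome ratio differed by 0.04 to 0.08 and the *B2m* ratio by 0.27 to 0.40 without single libraries. The smallest RNA-Best library sets the highest floor of a 0 count, 0.611 CPM, which is above the *Nlrc5* level of 5 of the 6 libraries.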
